A study of Mus musculus with 6 samples.

Results

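The genes described here are the Notch receptors *Notch1*, *Notch2* and *Notch4*, the ligands *Dll4*, *Jag1* and *Jag2*, and the target genes *Hes1*, *Hey1*, *Hey2* and *Heyl*. They were taken by gene symbol from tables that list 13003 genes, and all 10 were listed. The libraries came from ventricular myocardium of 3 WT mice (replicates 1, 3 and 4) and 3 Dst-b mutant mice (replicates 1, 2 and 3), aged 14 to 19 months. The mutant mice were homozygous for a CRISPR-Cas9 nonsense allele in an exon that only the Dst-b isoform of dystonin uses, were bred from heterozygous parents and were kept on C57BL/6J, as the paper's methods give it. Several lines of this allele were made, and the line and sex behind each library are not given in the sources used here. Replicates are separate hearts, so p-values measure the spread between these 6 mice.

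Notch receptors span the cell membrane and are switched on by Delta-like and Jagged ligands on a neighbouring cell. ADAM proteases and then gamma-secretase cut the bound receptor, and its freed intracellular part enters the nucleus, where it joins the DNA-binding protein RBPJ and Mastermind coactivators and turns on *Hes* and *Hey* genes, which encode basic helix-loop-helix repressors. In the heart the pathway is best known for arterial identity and sprouting of endothelial cells, for the endocardium and valves, and for smooth muscle of the coronary vessels.

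The libraries held 40693854 to 57580110 tags, the authors' estimated counts, for which the sources used here do not say whether a read or a read pair is 1 tag. Values below are CPM, tags relative to the TMM-scaled library total, unless RPKM is stated. A gene was called when edgeR's quasi-likelihood test gave a p under 0.01 and a Benjamini-Hochberg adjusted p under 0.1 over the 12955 genes tested. Each member rested on 166 to 4002 tags per library, and counting error alone was 7.76% at the lowest of these. *Dst*, the mutated gene, averaged 448 ± 25.2 CPM in the WT group and 430 ± 24.1 in the mutant group (SD, 3 mice per genotype), a total over all isoforms that does not check the labels. The cardiomyocyte genes *Myh6* and *Tnnt2*, which mark heart muscle, were at no less than 25360 and 17006 CPM in any library. The 4 tested Y-linked genes (*Ddx3y*, *Uty*, *Kdm5d* and *Eif2s3y*) were at 0 in mutant replicate 2 and present in the other libraries. The atrial genes *Myl7*, *Myl4* and *Sln* were highest in WT replicate 3. Other atrial genes differed: *Tbx5* was lowest there (19.05 CPM), and *Nppa* was highest in mutant replicate 2 (926 CPM, against 671 CPM in WT replicate 3).

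Sequences before the start sites are shown for the members whose values parted the genotypes, and for *Hey2* as the 1 member with the RBPJ core motif there. They are RefSeq promoter windows of GRCm38.p6, printed 5′ to 3′ on the gene's strand, without bases that an annotated transcript of the gene covers. Capitals mark the RBPJ core TGGGAA, or TTCCCA where it lies on the other strand. *Dll4* is chr2:119325534-119325783 on the plus strand, *Jag1* chr2:137116645-137116770 on the minus strand, *Notch2* chr3:98013288-98013526 on the plus strand and *Hey2* chr10:30842802-30843033 on the minus strand.
Dll4: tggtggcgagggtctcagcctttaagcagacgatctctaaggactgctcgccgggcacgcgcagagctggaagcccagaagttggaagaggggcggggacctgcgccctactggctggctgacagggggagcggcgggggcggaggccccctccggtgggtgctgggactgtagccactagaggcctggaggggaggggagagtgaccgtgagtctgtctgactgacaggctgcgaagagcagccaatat
Jag1: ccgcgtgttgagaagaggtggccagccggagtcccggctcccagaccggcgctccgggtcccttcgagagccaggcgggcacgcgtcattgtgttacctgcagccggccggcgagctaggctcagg
Notch2: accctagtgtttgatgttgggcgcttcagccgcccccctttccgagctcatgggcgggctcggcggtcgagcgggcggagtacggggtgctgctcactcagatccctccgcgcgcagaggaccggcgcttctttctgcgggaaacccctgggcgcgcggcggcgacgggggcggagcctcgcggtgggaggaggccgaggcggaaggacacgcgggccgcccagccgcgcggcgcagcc
Hey2: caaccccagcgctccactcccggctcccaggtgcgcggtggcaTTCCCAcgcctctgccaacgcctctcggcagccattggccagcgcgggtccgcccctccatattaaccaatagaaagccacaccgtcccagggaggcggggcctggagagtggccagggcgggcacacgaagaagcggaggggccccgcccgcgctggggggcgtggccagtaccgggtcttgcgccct
Windows were held for 7 members: *Notch1*, *Notch2*, *Notch4*, *Dll4*, *Jag1*, *Jag2* and *Hey2*. No window of *Jag2* or *Notch1* is printed, since annotated transcripts of the gene cover it. In the 250 bases before the start site the core was found on either strand in 1 of the 7, *Hey2*, with its first base 207 bases before the start, and in 21.6% of all 32851 windows of this length. The *Jag2* window was 87.2% G or C with 54 CpG and the *Notch4* window 58.4% with 4 CpG, against medians of 52.4% and 6 over all windows. A match describes the letters and says nothing of binding, and its absence covers only this window.

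None of the 10 members was called in the mutant hearts by edgeR's quasi-likelihood test, in either direction. At an unadjusted p under 0.05 there were 5 of 10, against 16.5% of all tested genes, and 4.64% of all tested genes were called. DESeq2, edgeR's exact test and limma-voom each called 1 member, *Jag2*, lower, and the study lists *Jag2* among its down-regulated genes. The fitted log2 fold change was negative in 9 of the 10 and positive in *Notch2* alone, with a median of -0.21, against 6478 negative of the 12955 tested genes and a median of -9.7e-07. The genotypes did not overlap in 4 members, *Dll4*, *Jag1*, *Jag2* and *Notch2*, against 21.9% of all tested genes.

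**Figure D1:**
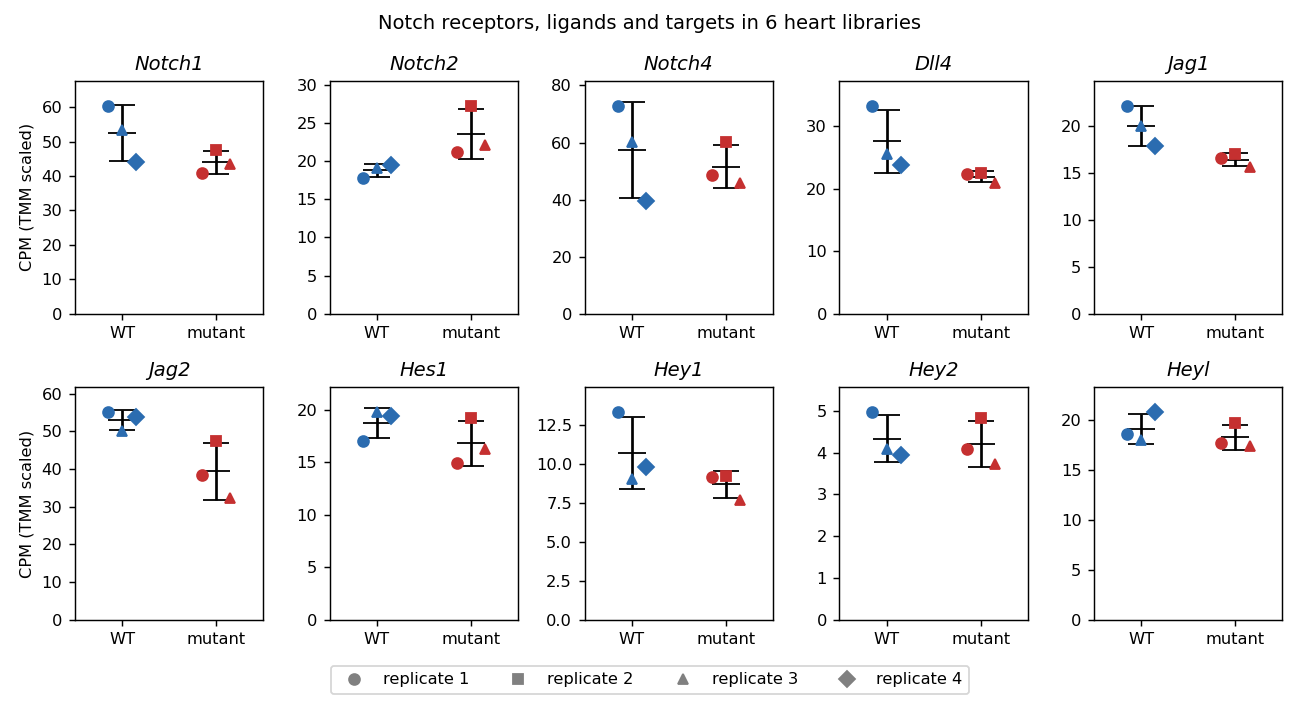
CPM (TMM scaled, y axis from 0) of the 10 members in each heart library, WT in blue and mutant in red, with the marker shape for the replicate number and bars for the mean ± SD of 3 mice. *Dll4*, *Jag1* and *Jag2* sit lower in every mutant heart than in every WT heart and *Notch2* sits higher, while the other 6 overlap, and mutant replicate 2 is the highest mutant heart in all 10.

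The 3 ligands were the group with the clearest parting, lower in each mutant heart than in any WT heart, as were 10.5% of all tested genes. *Jag2*, a Jagged ligand of endothelial and other cells, lies on chromosome 12 from 112907803 to 112929812 of GRCm38. It stood at 55.1, 50.03 and 53.8 CPM in WT replicates 1, 3 and 4 and at 38.5, 47.4 and 32.2 CPM in mutant replicates 1, 2 and 3. The WT hearts lay close together, and mutant replicate 2 came nearest to them. *Jag2* had a log2 fold change of -0.43 (SE 0.12), and the edgeR quasi-likelihood fit gave an adjusted p of 0.110, above the threshold. Over all alternatives run its adjusted p spanned 2.3e-04 to 0.334 (edgeR, DESeq2 and limma-voom). Without mutant replicate 2 *Jag2* was called lower (log2 fold change -0.59, edgeR adjusted p = 0.0198), and without mutant replicate 3 the log2 fold change was -0.30 (adjusted p = 0.219). The study's own edgeR analysis of these libraries, at a false discovery rate under 0.1, has *Jag2* among its down-regulated genes, unlike the main fit here. Both rest on the same hearts, so the direction of *Jag2* is not independent evidence.
*Dll4*, the Delta-like ligand of arterial and sprouting endothelium, lies on chromosome 2 from 119325784 to 119335666. It stood at 33.3, 25.6 and 23.9 CPM in WT replicates 1, 3 and 4 and at 22.4, 22.5 and 20.9 CPM in the mutant replicates. The mutant hearts were tightly grouped just under the lowest WT heart, and WT replicate 1 stood well above the others. For *Dll4* the log2 fold change was -0.33 (SE 0.12, edgeR quasi-likelihood adjusted p = 0.206), and -0.17 without WT replicate 1 (adjusted p = 0.408, with 0.0256 to 0.525 over all alternatives). An antisense gene, *Gm14207*, overlaps *Dll4* in the annotation, and whether tags were counted by strand is not given in the sources used here.
*Jag1*, the Jagged ligand of endothelium and smooth muscle and the gene of Alagille syndrome, lies on chromosome 2 from 137081451 to 137116520. It stood at 22.1, 20.04 and 17.9 CPM in WT replicates 1, 3 and 4 and at 16.6, 17.0 and 15.6 CPM in the mutant replicates. The gap between the genotypes was narrow beside the spread of the WT hearts. The fitted value for *Jag1* was a log2 fold change of -0.29 (SE 0.10, edgeR quasi-likelihood adjusted p = 0.194). *Dll1*, a further Delta-like ligand and no member, was also lower in each mutant heart, at 6.61 ± 0.422 against 5.15 ± 0.255 CPM (SD, 3 mice per genotype), and was not called (log2 fold change -0.36, edgeR adjusted p = 0.230). It was named after its values were seen. Summed, the 3 member ligands came to 95.6 to 110 CPM in WT hearts and 68.7 to 86.8 CPM in mutant hearts.

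The 3 receptors did not share a direction. *Notch2*, a receptor of many cell types, lies on chromosome 3 from 98013538 to 98150367 and was higher in each mutant heart than in any WT heart, as were 11.4% of all tested genes. It stood at 17.8, 19.1 and 19.5 CPM in WT replicates 1, 3 and 4 and at 21.2, 27.3 and 22.2 CPM in mutant replicates 1, 2 and 3. The WT hearts were close together, and mutant replicate 2 lay furthest from them. *Notch2* had a log2 fold change of 0.33 (SE 0.11, edgeR quasi-likelihood adjusted p = 0.171), and without mutant replicate 2 it was 0.20 (adjusted p = 0.375, with 0.0821 to 0.375 over all alternatives).
*Notch1*, the main receptor of arterial endothelium and endocardium, lies on chromosome 2 from 26457902 to 26503822. It stood at 60.4, 53.3 and 44.2 CPM in WT replicates 1, 3 and 4 and at 40.8, 47.6 and 43.5 CPM in the mutant replicates. WT replicate 4 lay among the mutant hearts, and the other WT hearts lay above them all. For *Notch1* the log2 fold change was -0.26 (SE 0.11, edgeR quasi-likelihood adjusted p = 0.275), and without WT replicate 4 *Notch1* was called lower (-0.37, adjusted p = 0.0917). Without WT replicate 1 *Notch1* was at -0.15 (edgeR adjusted p = 0.536, with 0.0067 to 0.673 over all alternatives).
*Notch4*, a receptor found mostly in endothelium, lies on chromosome 17 from 34564286 to 34588543. It stood at 72.8, 60.2 and 39.3 CPM in WT replicates 1, 3 and 4 and at 48.7, 60.1 and 45.7 CPM in the mutant replicates. The WT hearts reached both above and below the whole mutant range. *Notch4* had a log2 fold change of -0.16 (SE 0.19, edgeR quasi-likelihood adjusted p = 0.737), and it turned to 0.051 without WT replicate 1. Without WT replicate 4 *Notch4* was at -0.37, without mutant replicate 2 at -0.29 and without mutant replicate 3 at -0.078, none of them called by edgeR.
*Notch3*, the receptor of pericytes and smooth muscle, is no member and was called lower, from 54.8 ± 5.25 CPM in WT to 40.8 ± 5.03 CPM in mutant hearts (SD, 3 mice per genotype; log2 fold change -0.43, edgeR adjusted p = 0.0652).

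All 4 target genes overlapped between the genotypes. *Hes1*, the classical Notch target, lies on chromosome 16 from 30065357 to 30067796. It stood at 17.1, 19.8 and 19.4 CPM in WT replicates 1, 3 and 4 and at 14.9, 19.2 and 16.3 CPM in the mutant replicates, and mutant replicate 2 lay among the WT hearts while the other mutant hearts lay below them. Its log2 fold change was -0.16 (SE 0.12, edgeR quasi-likelihood adjusted p = 0.547). For *Hes1* it was -0.27 without mutant replicate 2 (edgeR adjusted p = 0.308) and -0.077 without mutant replicate 1 (adjusted p = 0.873).
*Hey1*, a target in endothelium and atrial muscle, lies on chromosome 3 from 8663359 to 8667038. It stood at 13.3, 9.02 and 9.79 CPM in WT replicates 1, 3 and 4 and at 9.15, 9.22 and 7.68 CPM in the mutant replicates. WT replicate 1 stood apart from the other 5 hearts, and WT replicate 3 was the lowest WT heart. For *Hey1* the fitted log2 fold change was -0.30 (SE 0.16, edgeR quasi-likelihood adjusted p = 0.386), and -0.11 without WT replicate 1 (adjusted p = 0.744, with 0.242 to 0.744 over all alternatives).
*Hey2*, a target known from arteries and from ventricular muscle in development, lies on chromosome 10 from 30832359 to 30842783. It stood at 4.97, 4.09 and 3.93 CPM in WT replicates 1, 3 and 4 and at 4.10, 4.82 and 3.73 CPM in the mutant replicates. The genotypes covered nearly the same range, and the log2 fold change was -0.04 (SE 0.18, edgeR quasi-likelihood adjusted p = 0.943). Its direction turned without WT replicate 1 (0.073) and without mutant replicate 3 (0.041), and the fits without 1 of the other libraries gave *Hey2* a log2 fold change of -0.15 to -0.018.
*Heyl*, a target prominent in vascular smooth muscle, lies on chromosome 4 from 123233556 to 123249870. It stood at 18.6, 17.99 and 20.8 CPM in WT replicates 1, 3 and 4 and at 17.7, 19.8 and 17.4 CPM in the mutant replicates. *Heyl* had a log2 fold change of -0.07 (SE 0.10, edgeR quasi-likelihood adjusted p = 0.794), with -0.0021 without WT replicate 4 and -0.13 without mutant replicate 2 as the ends of the range with 1 library left out. Summed, the 4 targets came to 50.9 to 54.0 CPM in WT hearts and 45.1 to 53.0 CPM in mutant hearts.

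Within each genotype the members tended to be high in the same library. Mutant replicate 2 was the highest mutant heart for all 10 members, against 35.4% of all tested genes, and WT replicate 1 was the highest WT heart for 7 of the 10, against 32.4%. Mutant replicate 3 was the lowest mutant heart for 7 members, against 32.8% of all tested genes, and WT replicate 4 the lowest WT heart for 5, against 34.9%. The endothelial marker sum was also highest in WT replicate 1 and mutant replicate 2, at 2094, 2036 and 1794 CPM in WT replicates 1, 3 and 4 and at 1695, 1962 and 1726 CPM in mutant replicates 1, 2 and 3, and its part in the order of the members was not tested. Mutant replicate 2 is also the library with the Y-linked genes at 0, and sex and mouse cannot be told apart in 1 library.

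Between genes, levels were compared per exon length, as the deposited RPKM. In WT hearts the order from high to low was *Hes1* (12.8 ± 1.01 RPKM, SD, n = 3 mice), *Jag2* (11.9 ± 0.572), *Notch4* (8.26 ± 2.43), *Dll4* (7.94 ± 1.43), *Notch1* (5.37 ± 0.828), *Hey1* (5.16 ± 1.10), *Heyl* (4.34 ± 0.332), *Jag1* (3.62 ± 0.383), *Notch2* (1.73 ± 0.0845) and *Hey2* (1.70 ± 0.217). The mutant means followed the same order. Neighbours whose WT ranges overlapped were *Hes1* and *Jag2*, *Notch4* and *Dll4*, *Notch1* and *Hey1*, *Hey1* and *Heyl*, and *Notch2* and *Hey2*. *Notch2* and *Hey2* overlapped in WT hearts and not in mutant hearts, where *Notch2* reached 2.002 to 2.57 RPKM and *Hey2* 1.44 to 1.93 RPKM. Among the receptors *Notch4* had the highest mean RPKM in both genotypes, and among the ligands *Jag2*. The members lay between percentiles 21.8 and 69.2 of the mean WT RPKM of all listed genes.

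**Figure D2:**
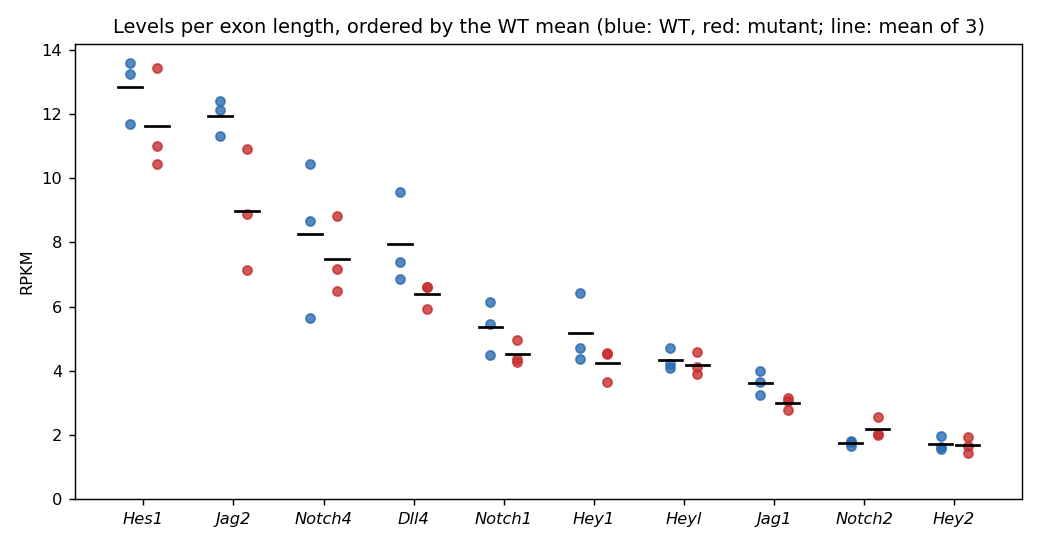
RPKM (y axis from 0) of each member in 6 libraries, ordered by the WT mean, with WT in blue, mutant in red and a line at the mean of 3 mice. *Hes1* and *Jag2* lead at 12.8 and 11.9 RPKM in WT hearts, *Notch2* and *Hey2* are lowest at 1.73 and 1.70 RPKM, and the order of the means is the same in the mutant hearts.

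Of 77 other tested pathway genes, 3 were called higher and 4 lower in the mutant hearts, with a median log2 fold change of -0.06. Of all tested genes 2.8% were called higher and 1.84% lower. Among 10 tested genes listed as other targets or as *Hes* relatives, 2 were called lower and none higher (edgeR's quasi-likelihood test, 5 at an unadjusted p under 0.05). *Nrarp*, a direct target whose product binds the Notch complex and dampens it, fell from 11.3, 7.62 and 10.05 CPM in WT replicates 1, 3 and 4 to 7.38, 4.70 and 4.41 CPM in mutant replicates 1, 2 and 3, a log2 fold change of -0.82 (SE 0.22, edgeR quasi-likelihood adjusted p = 0.0904). All mutant hearts lay under all WT hearts, by a narrow margin between WT replicate 3 and mutant replicate 1. *Hes6*, a relative of *Hes1* that counters it, fell from 11.7 ± 0.422 to 8.47 ± 0.960 CPM (SD, 3 mice per genotype; edgeR adjusted p = 0.0839).
Among 11 genes of ligands and ligand activity, *Egfl7*, a secreted endothelial protein that can bind Notch, fell from 162 ± 12.4 to 127 ± 13.4 CPM, and *Mfap5*, a microfibril protein of fibroblasts that can bind Jagged and Notch proteins, rose from 58.3 ± 8.69 to 90.2 ± 22.4 CPM (SD, 3 mice per genotype). The list of 9 genes of receptor maturation holds the receptor *Notch3* itself beside genes such as the Fringe glycosyltransferases. Only *Notch3* was called, and none of the genes that act on receptors. Of 9 genes of receptor cleavage, none was called by edgeR's quasi-likelihood test and 1 had an unadjusted p under 0.05, *Aph1a*, a gamma-secretase subunit (log2 fold change -0.18, adjusted p = 0.234). *Adam10*, the protease that makes the first cut, had a log2 fold change of -0.17 (edgeR adjusted p = 0.337), and -0.098 without WT replicate 4.
Of 11 genes of receptor turnover, *Fbxw7*, the ubiquitin ligase subunit that marks the cut receptor for degradation, rose from 56.3 ± 7.64 to 74.9 ± 2.29 CPM (SD, 3 mice per genotype; log2 fold change 0.41, edgeR quasi-likelihood adjusted p = 0.0548). Of 11 genes of the nuclear complex, *Rbpj* and the Mastermind genes among them, none was called by edgeR's quasi-likelihood test and 1, *Cdk8*, had an unadjusted p under 0.05. *Cdk8*, a kinase of the Mediator complex, had a log2 fold change of 0.31 (adjusted p = 0.126) and *Snw1* one of 0.11 (adjusted p = 0.398). Of 16 corepressor genes, *Bend6*, whose product binds RBPJ and represses Notch targets, rose from a low level of 1.34 ± 0.154 to 3.10 ± 0.615 CPM (SD, 3 mice per genotype; log2 fold change 1.21, edgeR adjusted p = 0.0323).
None of these 7 calls held in every fit with 1 library left out. *Bend6* was lost without mutant replicate 1 (edgeR quasi-likelihood adjusted p = 0.164) and held in the other 5. *Notch3* held without WT replicate 3 or mutant replicate 2, *Nrarp* without WT replicate 3 or mutant replicate 1, *Egfl7* without mutant replicate 2, *Mfap5* and *Hes6* without mutant replicate 3, and *Fbxw7* without WT replicate 4. In the other fits of these 6 genes the adjusted p from the same edgeR test was at most 0.268, and the directions did not turn. The study's term lists on these libraries name *Notch3*, *Nrarp*, *Egfl7*, *Mfap5* and *Fbxw7*, so these directions are not independent evidence.

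**Figure D3:**
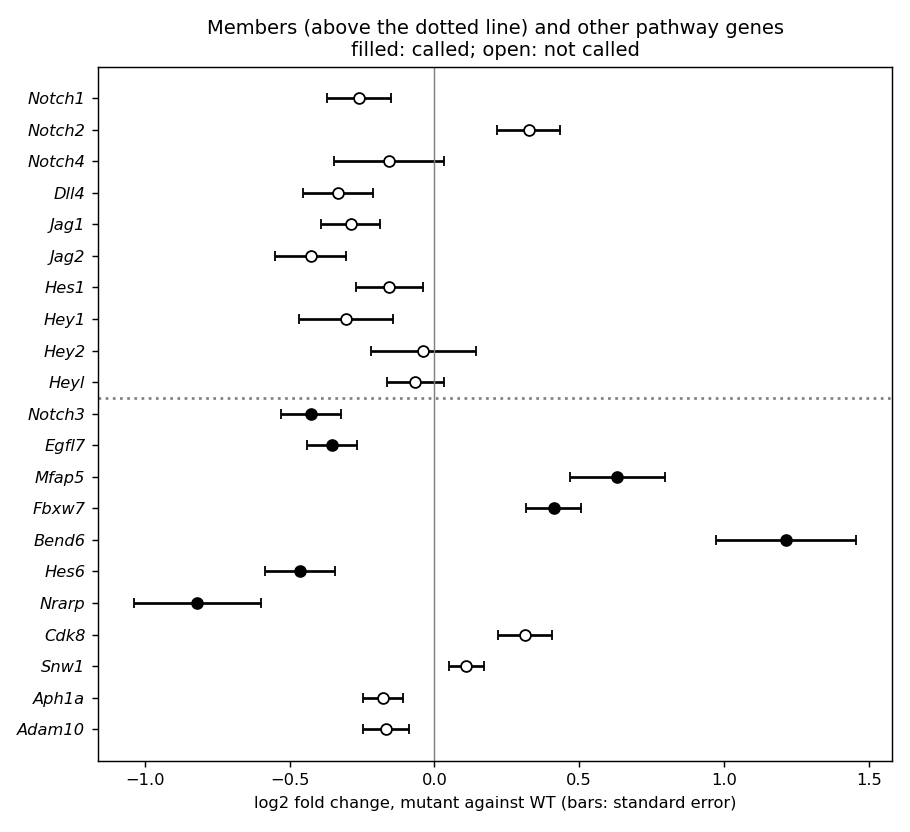
Log2 fold change, mutant against WT, with SE bars, of the 10 members (above the dotted line) and of other pathway genes (below it), with filled points for called genes. The pathway genes drawn are those given with values in the text, without *Dll1* and *Efnb2*. *Notch2* is the only member on the positive side, at 0.33, *Jag2* is the lowest at -0.43, no member is filled, and *Nrarp* and *Bend6* have the largest values below the line, at -0.82 and 1.21.

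Most of these genes are used by vessel cells, and in bulk tissue fewer cells of a type and less RNA per cell cannot be told apart. Of 17 endothelial markers 16 had a negative log2 fold change (median -0.17), and 2 were called lower, *Egfl7* and *Tie1*, the latter a receptor of the angiopoietin system (from 169 ± 6.46 to 138 ± 12.2 CPM, SD, n = 3 mice each). Their sum ranged from 1794 to 2094 CPM in WT and from 1695 to 1962 CPM in mutant hearts, so the sums overlapped, and none of the markers was at 0. In 7 of the 17 every mutant heart lay below every WT heart, against 10.5% of all tested genes, and 0 parted the other way. By edgeR's quasi-likelihood test 6 had an unadjusted p under 0.05. The 1 positive marker was *Vwf* (0.32). Of 10 pericyte markers 7 were called lower and none higher (median -0.40), among them *Vtn*, *Kcnj8*, *Rgs5*, *Ndufa4l2* and *Notch3*, and the sum ranged from 951 to 1029 CPM in WT and from 695 to 846 CPM in mutant hearts. With 1 library left out, *Vtn* and *Kcnj8* were called in all 6 fits, *Rgs5* in 5, and *Ndufa4l2*, *Notch3* and *Tie1* in 2. The study's term lists also name *Tie1*, *Kcnj8*, *Vtn* and *Ndufa4l2*, so their directions are not independent evidence. The part of these cell types in the members' values was not tested beyond the scaling given next.
The 10 arterial endothelial markers summed to 156.1 to 157.4 CPM in WT and 126.8 to 155.8 CPM in mutant hearts, and none was called by edgeR's quasi-likelihood test and 5 had an unadjusted p under 0.05. Of these 10 markers 7 had a negative and 3 a positive log2 fold change. In 4 the genotypes did not overlap, 3 lower and 1 higher in the mutant hearts, against 21.9% of all tested genes. The arterial markers with the smallest p were *Cxcr4* (log2 fold change -0.57, edgeR adjusted p = 0.106), a chemokine receptor, and *Efnb2* (-0.30, adjusted p = 0.209), an arterial ephrin and a Notch target. Of 7 endocardial markers none was called and none had an unadjusted p under 0.05 by the same edgeR test (median 0.09).
Scaled to the endothelial marker sum in place of the library total, which moved the median log2 fold change of all genes to 0.14, *Jag2* had a log2 fold change of -0.30 (edgeR quasi-likelihood adjusted p = 0.260), *Dll4* -0.19, *Jag1* -0.15 and *Notch1* -0.12. *Notch2* was then called higher (0.45, adjusted p = 0.0821), and *Hey2* and *Heyl* turned to 0.097 and 0.061. The number of all genes called on this scale was not counted, so the *Notch2* call has no share to be read against. At an unadjusted p under 0.05 by the same edgeR test there were 2038 of 12955 tested genes and 2 of the 10 members. As a percentage of the endothelial sum, *Notch2* went from 0.958% ± 0.121 in WT to 1.31% ± 0.0724 in mutant hearts, *Jag2* from 2.70% ± 0.277 to 2.18% ± 0.286 and *Jag1* from 1.01% ± 0.0388 to 0.916% ± 0.0559 (SD, 3 mice per genotype), and these 3 of the 10 members did not overlap between the genotypes, against 19.9% of all tested genes on the same scale.

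**Figure D4:**
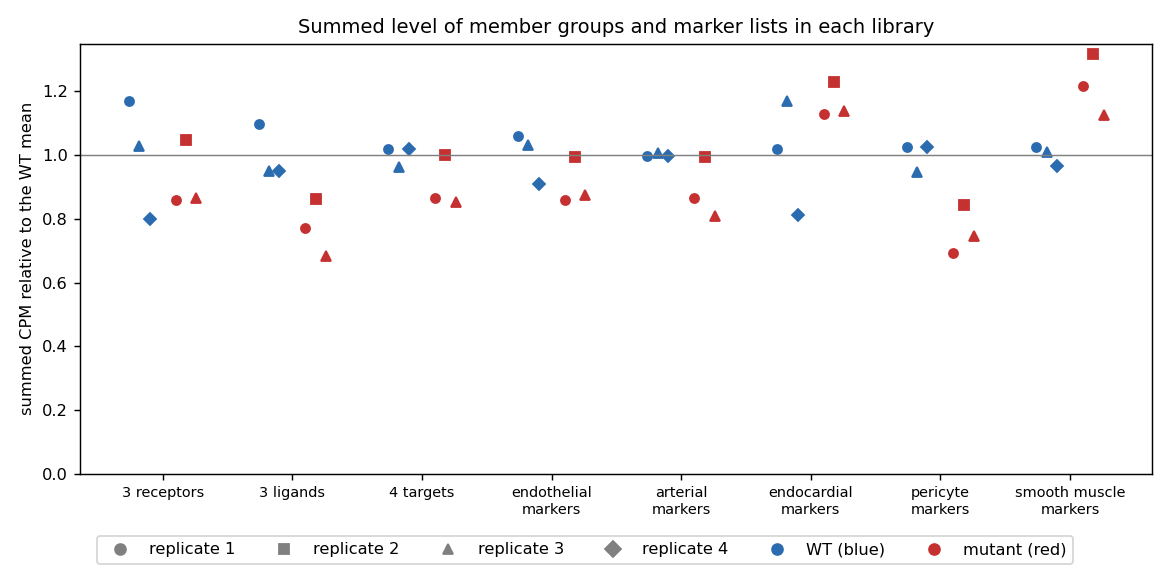
Summed CPM in each library, divided by the WT mean, for the 3 receptors, 3 ligands and 4 targets and for 5 lists of vessel and endocardial markers, with WT in blue, mutant in red and marker shapes for replicate numbers. The ligand, pericyte and arterial sums lie lower in all mutant hearts than in all WT hearts, the arterial ones by 155.8 against 156.1 CPM at the nearest. The smooth muscle sum lies higher, but 5 of its 9 markers had a negative log2 fold change, and *Acta2* in it rose from a mean of 72.7 to 184 CPM. The other 4 groups overlap, and mutant replicate 2 lies highest of the mutant hearts in all 8 groups.

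**Figure D5:**
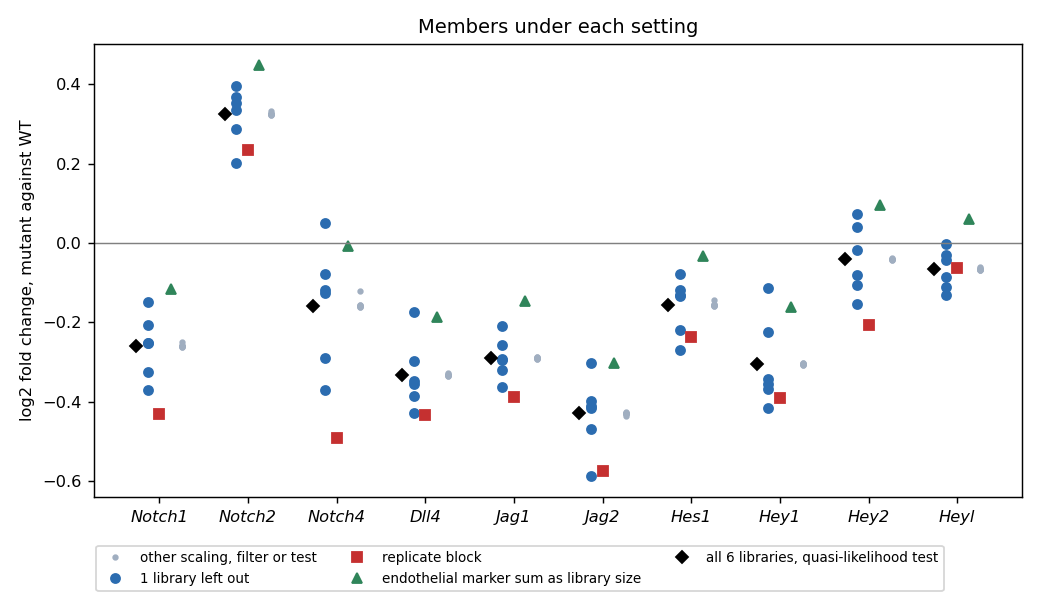
Log2 fold change of each member, mutant against WT, with all 6 libraries, with 1 library left out, with the replicate number as a block, scaled to the endothelial markers, and under other scalings, filters and tests. *Dll4*, *Jag1*, *Jag2*, *Notch1*, *Hes1* and *Hey1* stay negative and *Notch2* stays positive throughout, while *Notch4*, *Hey2* and *Heyl* cross 0 in at least 1 setting.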

How the data were processed

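Poly-A RNA of ventricular myocardium was sequenced as 150-nt read pairs. The labels name a directional NEBNext kit and the paper's methods a TruSeq protocol, and whether counting used strand is not given in the sources used here. The authors aligned to mm10 using OLego, and Quantas gave the gene values (versions not given in the sources used here). The deposited tables hold an estimated count of tags per gene, an exon length and an RPKM. The authors' RPKM divide tags by exon length and library total, and CPM were computed here from the deposited estimated counts. Estimated counts were rounded to whole numbers (8.45% to 13.8% of genes in a library were not whole, and every member was whole in all 6). Genes were tested if 3 or more of the 6 libraries reached 1 CPM, with edgeR 4.0.16 in R 4.3.3 (TMM, quasi-likelihood test, two-sided, genotype as the only term), at p under 0.01 and adjusted p under 0.1. The paper gives its p threshold as 0.01 in one place and 0.001 in another, so 0.001 was an alternative. RPKM were compared without a test. With 3 mice against 3 an exact permutation test cannot go below p = 0.1. No library repeated another: chi-square per degree of freedom between mice of the same genotype was 14.8 to 30.7. Tests were tested on simulated data.

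The members, the pathway lists and the marker lists (endothelial, arterial, endocardial, smooth muscle, pericyte, fibroblast, cardiomyocyte, atrial, ventricular, macrophage, fat and sex-linked genes) were chosen with earlier results of these data known. Named genes were every member, *Dst*, and in each list the called genes with the smallest p (at most 4), or the 2 with the smallest p where none was called, beside those said to be named after their values were seen. *Myh6*, *Tnnt2*, *Myl7*, *Myl4*, *Sln*, *Uty* and *Kdm5d* were named outside this rule. Positions and promoter windows came from RefSeq GRCm38.p6, matched by Entrez identifier for 12979 of 13003 genes. Alternatives were other scalings, filters, thresholds and tests (DESeq2 1.42.0, edgeR's exact test, limma-voom with limma 3.58.1), the replicate number as a block, each library left out, and the endothelial marker sum as library size. Figures used Python 3.11.15 and matplotlib 3.10.9.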

Additional observations from a re-analysis of the deposited data

How the results depend on the processing

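None of the members was called with median-of-ratios or upper quartile scaling, without a filter, with genes kept from a mean of 5 CPM (which leaves *Hey2* without a value), an adjusted p under 0.05 alone or p under 0.001. DESeq2, edgeR's exact test and limma-voom called 1 member lower (*Jag2*, adjusted p = 0.0174, 0.0387 and 0.0994), and leaving out 1 library gave 0 to 1 lower and 0 higher. With 1 library left out the log2 fold change spanned -0.37 to 0.051 for *Notch4* and -0.15 to 0.073 for *Hey2*, and scaled to the endothelial markers it turned for *Hey2* (0.097) and *Heyl* (0.061), while *Notch2* was called higher. Among other named genes they turned for *Plin1* (-0.45), *Ddx3y* (0.0086) and *Eif2s3y* (0.016) under the block, and *Eif2s3y* spanned -0.99 to 0.048 with 1 library left out.

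The replicate block rested on the 2 shared numbers, 1 and 3, since WT replicate 4 and mutant replicate 2 had no partner in it. These 2 libraries were fitted exactly, which left 1 residual degree of freedom. The log2 fold changes under the block therefore come from replicates 1 and 3 alone. Deviations of equally numbered libraries correlated at 0.012 and -0.024 across genes, so the numbers were not taken to pair mice. With this block 5 members were called lower (*Notch1*, *Notch4*, *Dll4*, *Jag1* and *Jag2*) and none higher. The counts were 509 higher and 457 lower genes among all tested, and 13 higher and 26 lower cell type markers. Why more genes were called under the block was not tested.

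Of all tested genes, 363 were called higher and 238 lower. DESeq2 gave 580 and 448, an adjusted p under 0.05 alone 210 and 94, and p under 0.001 gave 190 and 90, while leaving out 1 library gave 108 to 281 higher and 33 to 208 lower, fewest without mutant replicate 1. Of the other pathway genes (3 higher, 4 lower) both stricter thresholds called 1 higher and 0 lower, and leaving out 1 library 0 to 2 higher and 0 to 3 lower. Of the cell type markers (8 higher, 10 lower) both stricter thresholds called 3 higher and 5 lower, and leaving out 1 library 3 to 7 higher and 2 to 14 lower. Counting error at the member with fewest tags was 7.76%, against a biological coefficient of variation of 12.3% over all tested genes.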

Other observations

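Of 9 tested smooth muscle markers 2 were called higher, *Acta2* (from 72.7 ± 7.26 to 184 ± 20.7 CPM, SD, 3 mice per genotype, log2 fold change 1.34) and *Synpo2* (0.36), and the median of the list was -0.0023. Of 12 fibroblast markers *Col1a1* (0.46) and *Mfap5* (0.63) were called higher and none lower. Of 12 cardiomyocyte markers *Ttn* (0.47), *Actc1* (0.28) and *Mybpc3* (0.32) were called higher and *Myl3* (-0.27) lower. Of 6 ventricular markers *Myh7* (0.72) was called higher. With 1 library left out, *Acta2*, *Col1a1* and *Ttn* were called in all 6 fits, *Actc1*, *Mybpc3*, *Myl3* and *Myh7* in 2, and *Synpo2* and *Mfap5* in 1. The study's term lists on these libraries name all 9 of these genes, so their directions are not independent evidence. None of 8 atrial, 9 macrophage, 3 fat and 4 sex-linked genes was called by edgeR's quasi-likelihood test, with 2, 0, 0 and 0 at an unadjusted p under 0.05. Without WT replicate 3 the same edgeR test called *Nppa* (2.63, adjusted p = 5.7e-04) and *Cidec* (2.65, adjusted p = 0.0576) higher, and with any other library left out *Nppa* spanned 0.997 to 1.53 and *Cidec* 0.91 to 1.69 and neither was called. The values with the smallest p in these lists were *Tbx5* (0.26), *Nppa* (1.39), *Lyz2* (0.12), *C1qa* (0.13), *Cidec* (1.41), *Plin1* (0.54), *Ddx3y* (-0.65) and *Eif2s3y* (-0.54), and in the endocardial list *Vwf* (0.32) and *Npr3* (0.26). The study names *Nppa* among its up-regulated genes, and also reports more *Nppa* mRNA in mutant hearts by in situ hybridisation and by qPCR.

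*Notch1*, *Dll4* and *Jag1*, 3 of the 10 members, lie on chromosome 2. Their log2 fold changes were -0.26, -0.33 and -0.29.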
